A study of Mus musculus with 6 samples.

Results

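Nuclear receptors are transcription factors, many of which are switched by small fat-soluble ligands such as steroid hormones, retinoids, thyroid hormone, vitamin D, bile acids and fatty acids. The set described here held 43 mouse genes of this family, found by gene symbol. All 43 were found among the 34745 gene identifiers of the expression table. Expression was read in FPKM (fragments per unit of gene length, relative to all fragments of the library). At a mean level of 0.5 FPKM or more across the 6 libraries, 22 of the 43 receptors counted as expressed and 21 did not. Other nuclear receptor genes of the mouse were not analysed here. The libraries were made from tumours of Hep1-6, a mouse hepatoma cell line, grown under the skin of C57BL/6J mice. In the ND group (normal diet, n = 3) and the HCD group (high cholesterol diet, n = 3) the line, the strain and the site were the same, and diet was the only labelled difference. The tumours grew outside the liver, and each piece can hold RNA of tumour cells and of host cells. The age and sex of the mice, the length of feeding and the time of day at collection are not given in the sources used here. The labels do not say that the 3 tumours of a group came from separate animals, so p-values measure only the spread between these samples.

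A typical nuclear receptor has a DNA-binding domain of paired zinc fingers and a pocket that holds the ligand. Steroid receptors wait in complexes with heat shock proteins and act on DNA as homodimers, while the receptors for retinoic acid, thyroid hormone, vitamin D, fatty acids, bile acids and xenobiotics bind DNA together with a retinoid X receptor (RXR). Several members have no known natural ligand and act as constitutive activators or repressors. In normal liver a group of these receptors sets the expression of genes for bile acid synthesis, drug metabolism and fatty acid oxidation, and liver tumours and hepatoma lines often keep only a portion of that program.

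Library sizes worked out from the whole-read steps of the FPKM values ran from 20351547 to 26228089 fragments, so that 1 FPKM for a gene of 2 kb stood for 40.7 to 52.5 reads. Of 10 hepatocyte markers, 6 had a mean of at least 0.5 FPKM: Alb lay between 1176 and 1672 FPKM and the fetal liver gene Afp between 109 and 197 FPKM, while the urea cycle gene Cps1 was at most 0.0947 FPKM in any library. Muscle genes set 2 libraries apart, with 14 markers (12 of them expressed) summing to 769 FPKM in ND 2 and 901 FPKM in HCD 1 against 5.71 to 93.3 FPKM in the other 4. Summed T cell markers (6 genes, all expressed) ranged from 6.03 FPKM in ND 1 to 47.5 FPKM in HCD 2. In bulk RNA of this kind, fewer cells of a type and less RNA per cell cannot be told apart.

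The 22 expressed receptors came from 15 of the 19 subfamilies in the set. Levels were moderate: the highest, Nr2f2, stood at the 80.9th percentile of the 13417 genes at or above the same line. Of the 22, 9 had a mean of at least 5 FPKM, 10 lay between 1 and 5 FPKM and 3 were under 1 FPKM. The 5 most abundant (Nr2f2, Nr3c1, Rarg, Nr4a1 and Esrra) made up 50.9% of the summed FPKM of the 43 genes, and the 22 together made up 98.4%. All but Esr1 reached 0.5 FPKM in every library. The 0.5 FPKM line fell between Esr1, just inside at 0.541 FPKM, and the bile acid receptor gene Nr1h4, just outside at 0.391 FPKM. With a line at 0.25 FPKM the count was 27, and with a line at 1 FPKM it was 19.

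**Figure D1:**
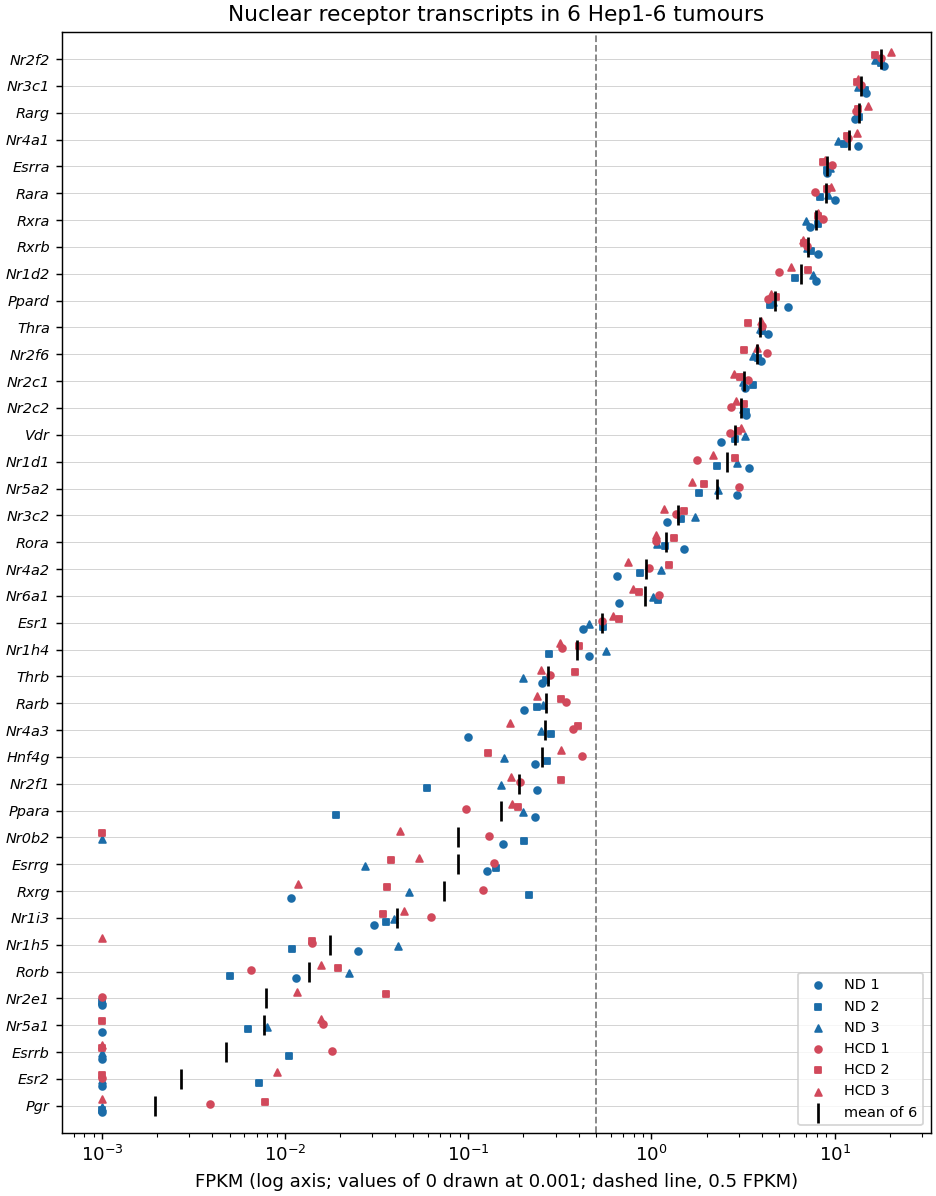
FPKM (log axis) of the 40 receptors above 0 in at least 1 library, 1 point per library (blue, ND; red, HCD) with the mean of 6 as a black tick and 0.5 FPKM as a dashed line. Values of 0 are drawn at 0.001. The blue and red points of each receptor right of the line overlap, and the spread widens to the left, where few reads lie behind a value.

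The RXRs are the shared partners of many of the other receptors, and 2 of the 3 were expressed. Rxra measured 7.38, 8.11 and 7.01 FPKM on ND and 8.63, 8.14 and 8.08 FPKM on HCD. Rxrb measured 8.10, 7.41 and 7.05 FPKM on ND and 7.05, 6.83 and 6.68 FPKM on HCD. Rxra had its lowest values in ND 1 and ND 3 and Rxrb its lowest in HCD 2 and HCD 3, yet both pairs of groups overlapped, Rxrb only just. The HCD minus ND difference on the log2(FPKM + 1) scale was 0.13 (95% interval -0.04 to 0.30) for Rxra and -0.12 (-0.28 to 0.05) for Rxrb, each with an adjusted p of 0.794 (limma). Their mean levels were close, with a Rxra to Rxrb ratio of 1.10 (0.911 to 1.22 over the libraries) and Rxra above Rxrb in 4 of 6 libraries. Rxrg, the isotype known from muscle and brain, averaged 0.0736 FPKM.

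Of the receptors for retinoic acid, Rarg and Rara were expressed and Rarb was not. Rarg stood at 13.2 ± 0.351 FPKM on ND and 13.9 ± 1.06 FPKM on HCD (SD, n = 3), the third highest receptor, and Rara at 9.19 ± 0.883 and 8.82 ± 0.900 FPKM. Rarg exceeded Rara in 6 of 6 libraries (ratio of means 1.51, range 1.28 to 1.68). Rarb, often a retinoic acid target itself, averaged 0.266 FPKM, and 34.1% of its exonic length overlaps Top2b on the other strand, a gene at 29.0 to 32.2 FPKM. The sources used here do not say whether reads were counted by strand, so Rarb and Top2b reads cannot be told apart there. Neither expressed isotype differed between diets past the test (limma adjusted p 0.835 for Rarg and 0.904 for Rara).

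Retinoid handling genes gave context for these receptors, since 11 of a list of 15 were expressed. The group held some of the most abundant transcripts beside the receptors. Aldh1a1, which makes retinoic acid from retinal, measured 283 ± 30.8 FPKM on ND and 359 ± 72.8 FPKM on HCD. Rbp4, the plasma carrier of retinol, stood at 262 ± 3.81 and 252 ± 25.2 FPKM, and Stra6, the receptor for that carrier, at 66.7 ± 2.80 and 69.5 ± 3.01 FPKM. Cyp26a1, the retinoic acid hydroxylase that retinoic acid strongly induces in many cells, averaged only 0.0695 FPKM, and Lrat, which esterifies retinol for storage, 0.00306 FPKM. None of the 11 passed the test, 6 with a higher and 5 with a lower HCD mean and a median log2 difference of 0.06 against 0.02 over all genes tested.

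Of the 2 thyroid hormone receptor genes, Thra was above the 0.5 FPKM line in the deposited values and Thrb was below it. Thra, the alpha thyroid hormone receptor gene, measured 4.32, 4.03 and 3.90 FPKM on ND and 4.04, 3.35 and 3.99 FPKM on HCD. Thrb, the isotype that predominates in liver, averaged 0.271 FPKM, and the Thra to Thrb ratio of means was 14.5 (8.75 to 19.6 over the libraries). The length fitted to the Thrb values was 14425 bases, against 7403 in GENCODE M21, and that of Thra 5825 against 4614. A shorter length would raise the FPKM, so the Thrb call and this ratio depend on the lengths used. The Thra values were tight apart from a lower HCD 2. Vdr, the vitamin D receptor gene, measured 2.41, 2.84 and 3.23 FPKM on ND and 2.68, 2.95 and 3.08 FPKM on HCD, with the groups overlapping throughout. Among 17 genes for making, moving or breaking down vitamin D, thyroid hormone and steroids, 6 were expressed. They included Slc16a10, a carrier of aromatic amino acids and thyroid hormone (17.7 ± 0.647 FPKM on ND and 20.4 ± 3.96 on HCD), while the deiodinase genes Dio1, Dio2 and Dio3 and the vitamin D hydroxylase genes Cyp24a1 and Cyp27b1 were all below 0.5 FPKM. Of these 6, 3 had a higher and 3 a lower HCD mean and none passed the test.

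Ppard, the broadly expressed fatty acid receptor gene, measured 5.58, 4.47 and 4.59 FPKM on ND and 4.35, 4.76 and 4.47 FPKM on HCD. ND 1 was the high value and the other 5 lay close together. Ppara, the isotype of hepatocytes, measured 0.231, 0.0189 and 0.200 FPKM on ND and 0.0974, 0.186 and 0.174 FPKM on HCD, from 3 reads in ND 2 to 32 reads in ND 1. The Ppard to Ppara ratio of means was 31.1. Of 18 genes known as targets of these receptors, 13 were expressed. Cyp4a10 and Cyp4a14, which hydroxylate fatty acids and are closely tied to Ppara in liver, were listed at 0 in all 6 libraries. The broadly used targets were abundant, with Plin2, a lipid droplet coat protein gene, at 74.2 ± 5.46 FPKM on ND and 73.0 ± 7.65 FPKM on HCD.

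None of the 13 expressed target genes passed the test. In 3 of them every HCD library lay above every ND library and in none the reverse; over all genes tested, 5.98% had such a higher HCD group. These 3 were Acadl, a fatty acid oxidation enzyme gene (log2 difference 0.20), Ucp2, a mitochondrial carrier gene (0.17), and Cpt1a, which admits fatty acids to mitochondria (0.18), each with a limma adjusted p of 0.794. Cpt1a was named after its values were seen.

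The steroid receptors were carried by the glucocorticoid receptor gene Nr3c1. It measured 14.9, 14.6 and 13.4 FPKM on ND and 13.9, 13.2 and 13.4 FPKM on HCD, the second highest level in the family and with a coefficient of variation (CV, SD over mean) of only 5.03% over the 6 libraries. ND 1 and ND 2 were the highest values, and ND 3 fell within the HCD range. The log2 difference was -0.08 (95% interval -0.22 to 0.07, limma adjusted p 0.805). Nr3c2, the mineralocorticoid receptor gene, stood at 1.47 ± 0.254 FPKM on ND and 1.35 ± 0.162 FPKM on HCD, and Nr3c1 exceeded it by a ratio of means of 9.89 (7.76 to 12.2).

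Sex steroid receptors were near or below the line. Esr1, the estrogen receptor alpha gene, measured 0.426, 0.546 and 0.457 FPKM on ND and 0.535, 0.667 and 0.614 FPKM on HCD, on 179 to 272 reads per library. The 2 lowest values were ND 1 and ND 3, but ND 2 lay above HCD 1, so the groups overlapped (log2 difference 0.12, 95% interval -0.10 to 0.35, limma adjusted p 0.803). Esr2, the beta isotype gene, averaged 0.00270 FPKM and Pgr, the progesterone receptor gene, 0.00195 FPKM.

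Steroid receptors are held ready by a chaperone machine, and all 9 genes of that list were expressed. Hsp90ab1, the constitutive HSP90, measured 376 ± 4.84 FPKM on ND and 401 ± 7.72 FPKM on HCD. Ptges3, the p23 co-chaperone that stabilises the ligand-ready complex, measured 58.4, 60.2 and 59.6 FPKM on ND and 65.2, 65.4 and 65.4 FPKM on HCD. Every HCD library lay above every ND library for these 2 genes, with log2 differences of 0.09 and 0.14, against 5.98% of all genes tested, and neither passed the test (limma adjusted p 0.794). None of 13 genes that glucocorticoids are known to induce passed the test, 6 with a higher and 7 with a lower HCD mean, and a median log2 difference of -0.06. Groups were separate for 0 of the 13, against 12.1% of all genes tested. The most abundant were the metallothionein genes Mt2, at 195 ± 37.4 and 274 ± 71.2 FPKM, and Mt1, at 179 ± 50.3 and 215 ± 41.9 FPKM. Lcn2, the siderophore-binding protein lipocalin 2, measured 1.15 ± 0.798 FPKM on ND and 0.360 ± 0.140 FPKM on HCD, with 1.35 and 1.83 FPKM in ND 1 and ND 3 and no more than 0.515 FPKM in the other 4. Summed markers of neutrophils, a source in which Lcn2 is abundant, were also high in those 2 libraries (95.6 and 101 FPKM against 37.3 to 39.8 FPKM). S100a9 alone gave 61.2 and 60.2 FPKM of these sums. S100a8 and Cxcr2 were also highest there, and Csf3r narrowly so (8.75 FPKM in ND 1 against 8.16 FPKM in ND 2). Retnlg was not, at 5.83 FPKM in ND 1 against 6.38 FPKM in HCD 1. The part of neutrophils in the Lcn2 result was not tested.

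Orphan receptors included the most abundant and the most even members. Nr2f2, which encodes COUP-TFII, a regulator of venous, mesenchymal and metabolic genes, measured 18.6, 17.9 and 16.5 FPKM on ND and 17.9, 16.6 and 20.4 FPKM on HCD, 13.8% of the family's summed FPKM. It exceeded Nr3c1, the next in order, in 6 of 6 libraries. HCD 3 was the highest value and ND 3 and HCD 2 the lowest, and the log2 difference was 0.04 (95% interval -0.17 to 0.25, limma adjusted p 0.915). Its relative Nr2f6 stood at 3.78 ± 0.186 FPKM on ND and 3.74 ± 0.554 FPKM on HCD, although 54.4% of the Nr2f6 exonic length overlaps Ocel1 on the other strand (1.36 to 1.83 FPKM), and Nr2f1, which encodes COUP-TFI, averaged 0.189 FPKM.

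Esrra, the estrogen-related receptor gene that drives mitochondrial energy genes, measured 9.14, 9.13 and 9.42 FPKM on ND and 9.65, 8.61 and 8.87 FPKM on HCD. It had the lowest CV of the 22, 4.07%, and a log2 difference of -0.03 (95% interval -0.18 to 0.12, limma adjusted p 0.918). Its relatives Esrrb and Esrrg, the first known from stem cells and the other from oxidative tissues, averaged under 0.1 FPKM. The testicular receptor genes Nr2c1 and Nr2c2 lay side by side at 3.20 and 3.09 FPKM and changed order between libraries, Nr2c1 being higher in 2 of 6. A stretch of 30.7% of the Nr2c2 exonic length overlaps Mrps25 on the other strand.

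Nr5a2 encodes LRH-1, an activator of bile acid and cholesterol handling genes in liver and of early embryonic genes. It measured 2.93, 1.81 and 2.32 FPKM on ND and 2.99, 1.94 and 1.68 FPKM on HCD. With a CV of 25.1% it varied most of the 22, and the high libraries, ND 1 and HCD 1, came from different diets. Its log2 difference of -0.07 carried a wide 95% interval of -0.53 to 0.38, and without ND 2 and HCD 1, the libraries with the high muscle sums, it was -0.36 (limma adjusted p 0.719). Nr6a1, the germ cell nuclear factor gene, averaged 0.922 FPKM with 0.667 FPKM in ND 1 and 0.797 to 1.11 FPKM in the other 5. Nr5a1, the steroidogenic factor of adrenal and gonad, averaged 0.00769 FPKM.

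The clock receptors were the REV-ERB genes Nr1d1 and Nr1d2 and the ROR gene Rora. REV-ERBs repress and RORs activate shared DNA elements, among them those of the clock gene Arntl, and REV-ERB transcripts themselves cycle strongly over the day in many tissues. Bases before the starts of Nr1d1 and Nr1d2 are shown because these 2 genes followed each other across libraries. They are taken from RefSeq promoters on GRCm38.p6, 5′ to 3′ on the gene's strand, for Nr1d1 at chr11:98775378-98775627 and for Nr1d2 at chr14:18239128-18239356, both on the minus strand. The Nr1d2 stretch stops where the GENCODE gene begins, short of the RefSeq start. Capitals mark the receptor core hexamer AGGTCA or its complement TGACCT.
Nr1d1: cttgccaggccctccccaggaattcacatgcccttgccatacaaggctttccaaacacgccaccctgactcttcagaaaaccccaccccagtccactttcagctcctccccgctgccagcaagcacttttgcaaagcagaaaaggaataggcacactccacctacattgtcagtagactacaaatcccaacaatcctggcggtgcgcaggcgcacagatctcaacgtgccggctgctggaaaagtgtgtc
Nr1d2: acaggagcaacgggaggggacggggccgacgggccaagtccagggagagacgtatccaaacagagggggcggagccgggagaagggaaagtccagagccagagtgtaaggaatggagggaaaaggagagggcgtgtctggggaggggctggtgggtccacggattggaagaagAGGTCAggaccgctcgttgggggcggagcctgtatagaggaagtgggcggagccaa
The Nr1d2 window held 1 hexamer, 77 to 72 bases before the RefSeq start (not the end of the stretch shown), and the Nr1d1 window held none. Neither held the E-box CACGTG, which the clock activators bind. Over 32851 promoter windows of 250 bases, 14.02% held AGGTCA on either strand and 6.02% held CACGTG.

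Nr1d2 measured 7.89, 6.06 and 7.59 FPKM on ND and 4.97, 7.15 and 5.76 FPKM on HCD. Nr1d1 measured 3.42, 2.29 and 2.94 FPKM on ND and 1.77, 2.87 and 2.17 FPKM on HCD. The 6 libraries fell in the same order for both genes, from ND 1 at the top through ND 3, HCD 2, ND 2 and HCD 3 to HCD 1 at the bottom, and the top exceeded the bottom 1.94-fold for Nr1d1 and 1.59-fold for Nr1d2. The diet difference, with groups that overlapped, was the most negative of the 22 for both: -0.25 for Nr1d1 (95% interval -0.64 to 0.14) and -0.24 for Nr1d2 (-0.58 to 0.11), each with a limma adjusted p of 0.794. Without HCD 1 these differences were -0.14 and -0.13, and without HCD 2 they were -0.38 and -0.36. Nr1d1 lies tail to tail with Thra on chromosome 11, where 263 exonic bases are shared on opposite strands (8.5% of the Nr1d1 exons), so reads of these 2 genes cannot be told apart there.

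Rora measured 1.51, 1.18 and 1.08 FPKM on ND and 1.06, 1.33 and 1.06 FPKM on HCD, and Rorb, known from brain and retina, averaged 0.0134 FPKM. Of 15 clock genes, 10 were expressed, 5 with a higher and 5 with a lower HCD mean on the log2(FPKM + 1) scale, and none passed the test. Groups were separate for 0 of the 10, against 12.1% of all genes tested. Bhlhe40, a clock repressor that also responds to hypoxia, measured 43.7, 29.9 and 42.4 FPKM on ND and 28.7, 39.1 and 38.5 FPKM on HCD. Its 3 highest libraries and its lowest were those of the REV-ERB genes, with ND 2 and HCD 3 exchanged between. Arntl varied less, at 16.9 ± 0.902 FPKM on ND and 15.9 ± 1.38 FPKM on HCD. Dbp, a strongly rhythmic output gene, averaged 0.440 FPKM.

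**Figure D2:**
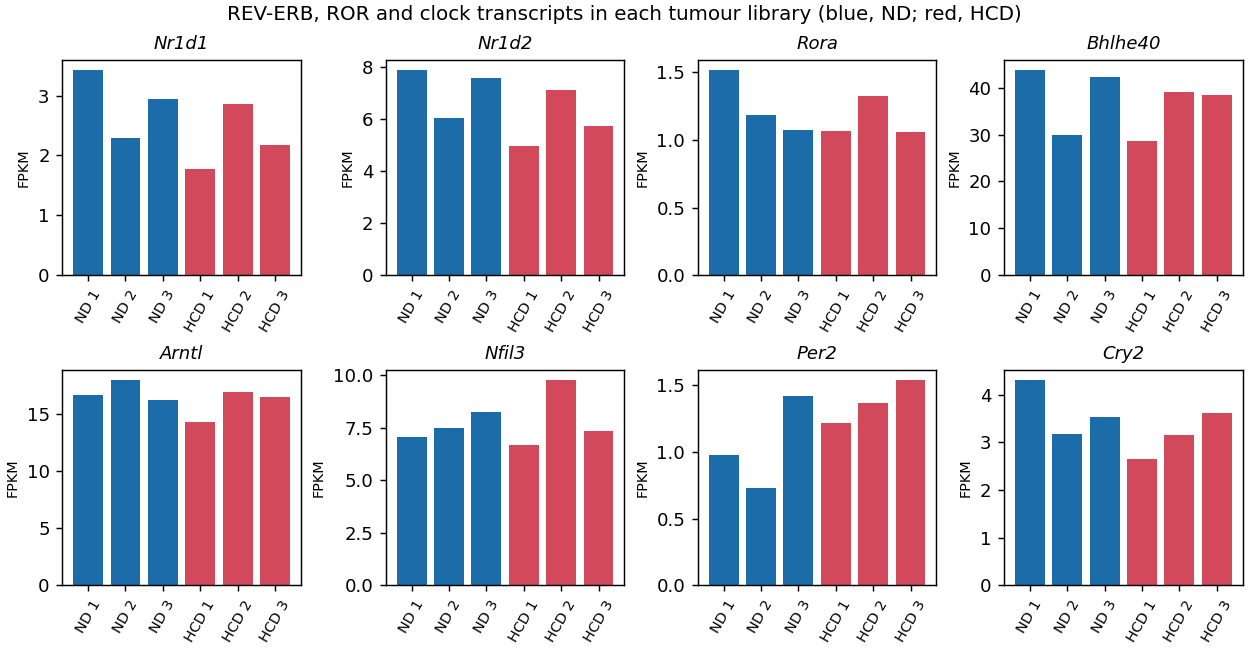
FPKM (linear axes from 0) of 3 clock receptors and 5 other clock genes, 1 bar per library, blue for ND and red for HCD. Nr1d1 and Nr1d2 have the same order of bars, highest in ND 1 and lowest in HCD 1. Bhlhe40 and Cry2 are also highest in ND 1 and lowest in HCD 1, with another order between. Arntl and Nfil3 are lowest in HCD 1 but not highest in ND 1, Rora is highest in ND 1 but not lowest in HCD 1, and Per2 shares neither end.

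The NR4A receptors are immediate early genes, induced within a short time by growth factors, cAMP and, in T cells, by signalling of the antigen receptor. Their promoters are shown because cAMP acts through the CREB protein on the core CGTCA, and each of the 3 genes held 4 copies of it, or of its complement TGACG, in the 250 bases before its RefSeq start. Of all 32851 windows, 17.8% held at least 1 copy and 45 windows (0.137%) at least 4. A match of letters is a description and does not show a bound site. Capitals mark these cores, read 5′ to 3′ on the gene's strand of GRCm38.p6 (RefSeq): Nr4a1 at chr15:101266596-101266845 (plus strand), inside the GENCODE span of the gene, Nr4a2 at chr2:57124004-57124253 (minus strand) and Nr4a3 at chr4:48045055-48045152 (plus strand). The Nr4a3 stretch stops where the GENCODE gene begins and so shows 3 of its 4 copies.
Nr4a1: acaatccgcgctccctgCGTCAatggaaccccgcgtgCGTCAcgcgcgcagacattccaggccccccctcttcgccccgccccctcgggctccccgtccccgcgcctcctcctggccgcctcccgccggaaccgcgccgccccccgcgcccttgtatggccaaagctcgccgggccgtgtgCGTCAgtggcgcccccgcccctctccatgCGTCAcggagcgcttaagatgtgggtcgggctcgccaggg
Nr4a2: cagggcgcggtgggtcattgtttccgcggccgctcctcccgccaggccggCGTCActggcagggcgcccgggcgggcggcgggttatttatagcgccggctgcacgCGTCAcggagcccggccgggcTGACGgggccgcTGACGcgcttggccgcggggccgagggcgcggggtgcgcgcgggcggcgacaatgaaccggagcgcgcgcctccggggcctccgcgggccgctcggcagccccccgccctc
Nr4a3: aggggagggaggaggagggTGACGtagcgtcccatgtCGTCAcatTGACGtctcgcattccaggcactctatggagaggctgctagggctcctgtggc
In Nr4a1 all 4 copies read CGTCA on the gene's strand, whereas Nr4a2 had 2 on each strand and Nr4a3 had 1 on its own strand and 3 on the other.

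The 3 genes had unlike levels. Nr4a1, which encodes NUR77, measured 13.5, 11.3 and 10.4 FPKM on ND and 11.9, 11.8 and 13.2 FPKM on HCD. Nr4a2, which encodes NURR1, measured 0.646, 0.863 and 1.13 FPKM on ND and 0.965, 1.25 and 0.744 FPKM on HCD. Nr4a3, which encodes NOR1, measured 0.0991, 0.283 and 0.251 FPKM on ND and 0.374, 0.400 and 0.169 FPKM on HCD, on 25 to 90 reads, and was under the 0.5 FPKM line. Nr4a1 exceeded Nr4a2 by a ratio of means of 12.9 and Nr4a3 by 45.7. The length fitted to the values was shorter than in GENCODE M21 for Nr4a1 (2474 against 3509 bases). It was longer for Nr4a2 (6363 against 4059) and Nr4a3 (11026 against 5987). These ratios, and the place of Nr4a3 under the line, depend on the lengths used. The groups overlapped for all 3, and the log2 difference was 0.07 for Nr4a1 (95% interval -0.18 to 0.31, limma adjusted p 0.881) and 0.08 for Nr4a2 (-0.27 to 0.43, limma adjusted p 0.904).

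Nr4a1 was highest in ND 1, the library in which Nr4a2 and Nr4a3 were lowest. Nr4a2 and Nr4a3 were highest in HCD 2 and second lowest in HCD 3. Summed T cell markers (6 of 6 expressed) were likewise lowest in ND 1 (6.03 FPKM), second lowest in HCD 3 (17.4 FPKM) and highest in HCD 2 (47.5 FPKM), and summed macrophage markers (8 of 8 expressed) were 255 FPKM in ND 1 and 1006 FPKM in HCD 2. Ranked by mean log2(FPKM + 1), endothelial markers (7 of 7 expressed) put the libraries in the same order as T cell markers. Macrophage and B cell markers (2 of 4 B cell genes expressed) also had HCD 3 and ND 1 lowest. The pattern was thus not particular to T cell markers. The part of any of these cells in the Nr4a2 and Nr4a3 levels was not tested. The 11 other immediate early genes were all expressed, 7 with a higher and 4 with a lower HCD mean (median log2 difference 0.08), and none passed the test. Junb, a subunit of the AP-1 factor, measured 153, 92.4 and 132 FPKM on ND and 96.6, 101 and 96.3 FPKM on HCD. Ier3, a stress-induced survival gene, measured 74.3, 35.0 and 58.7 FPKM on ND and 29.9, 30.6 and 43.7 FPKM on HCD. Both were highest in ND 1 and ND 3, the libraries with the high neutrophil marker sums, and ND 2 lay within or below the HCD values. S100a9 was the largest part of those sums, and the neutrophil marker Retnlg was lower in ND 1 than in HCD 1. The part of neutrophils in these levels was not tested.

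**Figure D3:**
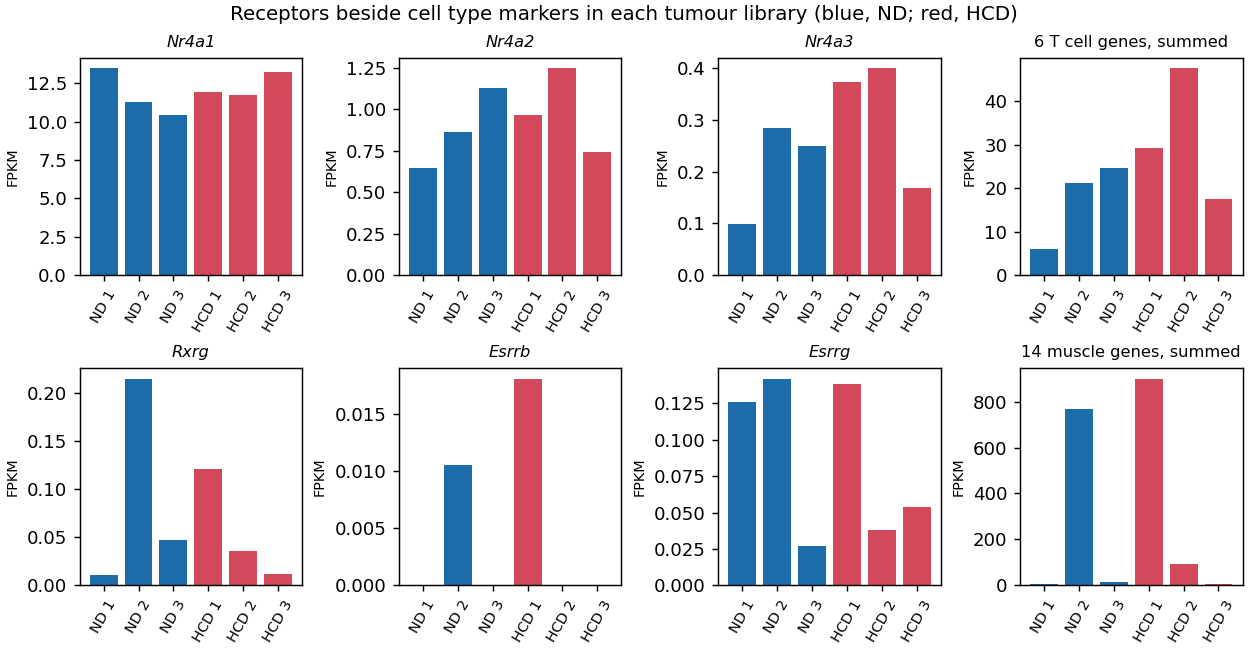
FPKM (linear axes from 0) of 6 receptors in each library beside summed T cell markers (top right, 6 genes) and summed skeletal muscle markers (bottom right, 14 genes), blue for ND and red for HCD. Nr4a2, Nr4a3 and the T cell sum are lowest in ND 1 and highest in HCD 2. The macrophage and endothelial marker sums, not drawn, are also lowest in ND 1 and highest in HCD 2. Rxrg and Esrrb are highest in ND 2 and HCD 1, the libraries with the high muscle sums, and the Esrrb bars rest on few reads.

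In the deposited FPKM values, the receptors that sense bile acids and xenobiotics in liver fell below the line as a class. Nr1h4, which encodes the bile acid receptor FXR, came nearest, at 0.456, 0.277 and 0.567 FPKM on ND and 0.326, 0.403 and 0.317 FPKM on HCD, on 21 to 37 reads. The length fitted to these values was 3161 bases, against 2303 in GENCODE M21. A shorter length would raise the FPKM, so the Nr1h4 call depends on the length used. Nr1h5, the related FXR beta gene, averaged 0.0176 FPKM. Nr1i2, which encodes the pregnane X receptor, was listed at 0 in all 6 libraries. If its length in the authors' table was that of GENCODE M21, 3 reads would have given 0.0448 to 0.0577 FPKM, and a longer gene model less. Nr1i3, which encodes the constitutive androstane receptor, averaged 0.0411 FPKM, and 74.9% of its exonic length overlaps Tomm40l on the other strand. Nr0b2, which encodes SHP, a repressor that FXR induces, averaged 0.0882 FPKM, and Hnf4g averaged 0.253 FPKM.

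Of 18 target genes of these receptors, 5 were expressed. The bile acid synthesis gene Cyp7a1 (0.00352 FPKM on average) and the xenobiotic oxidase gene Cyp3a11 (0.0107 FPKM) were near 0, and the bile acid exporter subunit gene Slc51a was listed at 0. Por, which supplies electrons to these oxidases, stood at 24.8 ± 0.631 FPKM on ND and 26.5 ± 2.87 FPKM on HCD, and Abcc2, an exporter of conjugates, at 32.1 ± 3.11 and 34.3 ± 3.37 FPKM. Cyp3a13 measured 19.4 ± 1.79 FPKM on ND and 15.2 ± 3.90 FPKM on HCD, with HCD 1 the low library at 10.7 FPKM and the groups overlapping. None of the 5 passed the test.

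Receptors known from other tissues were also near 0. Nr2e3, a photoreceptor gene, and Nr0b1, which encodes the adrenal and gonadal repressor DAX1, were listed at 0 in all 6 libraries. With GENCODE M21 lengths, 3 reads would have given 0.0340 to 0.0438 and 0.0633 to 0.0815 FPKM. Nr2e1, a neural stem cell gene, measured 0.0356 FPKM in HCD 2 and 0.0116 FPKM in HCD 3 and was listed at 0 in the other 4. Rxrg measured 0.215 FPKM in ND 2 and 0.121 FPKM in HCD 1, against 0.0107 to 0.0476 FPKM in the other 4. Esrrb was listed at 0 outside ND 2 (0.0106 FPKM) and HCD 1 (0.0181 FPKM), values that rest on few reads. These are the 2 libraries with the high muscle gene sums, 1 from each diet, and the part of muscle RNA in these levels was not tested. Esrrg measured 0.142 and 0.138 FPKM there but also 0.126 FPKM in ND 1, where the muscle sum was 5.71 FPKM. Of the 21 receptors below the line, 3 were at 0 throughout, 11 averaged above 0 and under 0.1 FPKM, 2 lay between 0.1 and 0.25 FPKM and 5 between 0.25 and 0.5 FPKM.

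Diet was then compared over the 22 expressed receptors. None had an adjusted p under 0.05 (limma on log2(FPKM + 1), 13417 genes), and among all genes tested 0% were called higher and 0% lower. The lowest adjusted p of a receptor was 0.794, and 0 of 22 had an unadjusted p under 0.05, against 5.88% of all genes (789 genes). Without ND 2 or without HCD 2, 1 of 22 receptors had such a p, and leaving out 1 library gave 388 to 1171 such genes over all genes tested. In 0 of 22 receptors did every HCD library lie on 1 side of every ND library, against 12.1% of all genes tested. HCD means were higher for 7 receptors and lower for 15, while 55.7% of all genes had a higher HCD mean. The median log2 difference was -0.06 for the receptors and 0.02 for all genes, and single values ran from -0.25 to 0.13. The 95% intervals reached from -0.64 (Nr1d1) to 0.43 (Nr4a2), and in 19 of the 22 the whole interval lay within 0.5 of 0 in either direction. A p that misses the threshold does not show that the receptors are alike under both diets.

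**Figure D4:**
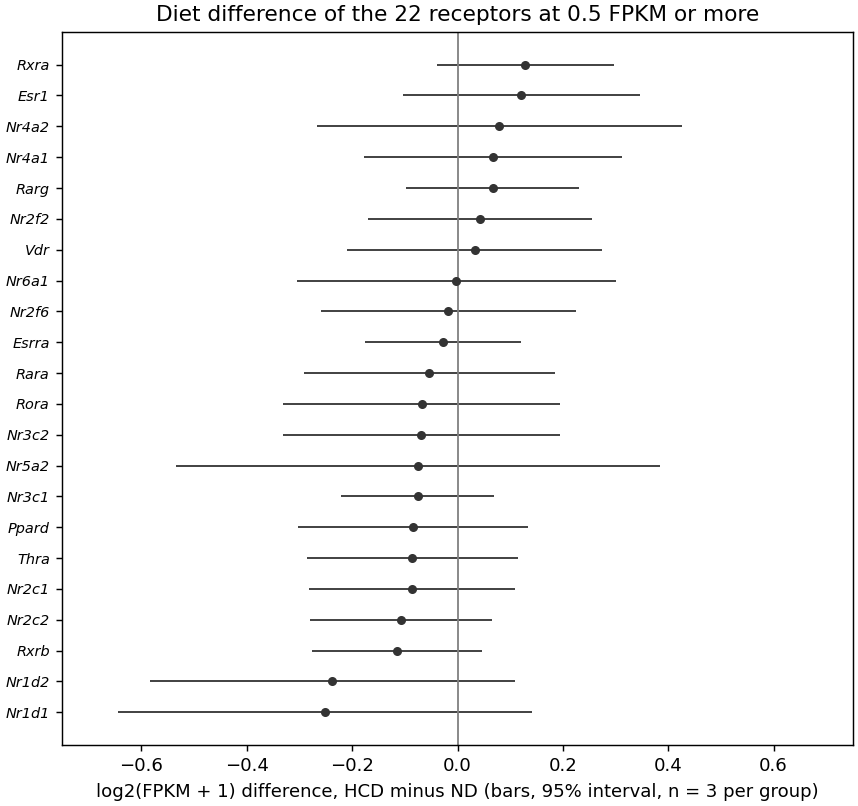
HCD minus ND difference on the log2(FPKM + 1) scale for the 22 receptors with a mean of at least 0.5 FPKM, in order of size (points, limma estimate; bars, 95% interval, n = 3 per group). Each interval contains 0, and the REV-ERB genes Nr1d1 and Nr1d2 lie lowest at -0.25 and -0.24.

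Across the 6 libraries the receptors varied little. Their median CV was 9.62%, against 12.1% for 10698 genes tested in the same FPKM range, 13 of 22 were under 10% and 3 (Nr5a2, Nr4a2 and Nr1d1) were over 20%. Neighbours in the order of levels often changed places between libraries: Nr3c1 exceeded Rarg in 4 of 6, Esrra exceeded Rara in 3 of 6 and Nr4a2 exceeded Nr6a1 in 2 of 6. Steps held in 6 of 6 libraries lay between Nr2f2 and Nr3c1, Nr4a1 and Esrra, Nr1d2 and Ppard, and Ppard and Thra. Others lay between Nr2f6 and Nr2c1, Nr5a2 and Nr3c2, and Nr6a1 and Esr1. A gene's length enters all 6 libraries alike, so such steps depend on the lengths behind the FPKM values. Nr4a1 was fitted at 2474 bases against 3509 in GENCODE M21, and Esrra at 4079 against 4387. Ppard was fitted at 6455 against 7514, but Thra at 5825 against 4614.

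Receptors act through coregulators, and 22 of a list of 24 were expressed. None passed the test, with 11 HCD means higher and 11 lower and a median log2 difference of 0.0038. Groups were separate for 5 of the 22, 3 higher and 2 lower on HCD, against 5.98% and 6.13% of all genes tested. Nrip1, which encodes the ligand-dependent corepressor RIP140, measured 5.70, 6.52 and 5.91 FPKM on ND and 5.19, 5.27 and 4.53 FPKM on HCD, a log2 difference of -0.23 (SE 0.0803). The lowest ND library stood above the highest HCD library, yet the limma adjusted p was 0.794. Ncoa3, a p160 coactivator named after its values were seen, had a higher HCD mean (log2 difference 0.22, limma adjusted p 0.794). Tbl1x, which encodes a subunit of nuclear receptor corepressor complexes, was the most abundant of the list, at 20.4 ± 0.830 FPKM on ND and 20.4 ± 0.805 FPKM on HCD.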

How the data were processed

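Per the file headers, the table deposited by the authors holds FPKM values, 1 column per library. The tools named in the submitters' processing notes are edgeR, HTSeq, TopHat2 2.0.9 and CASAVA 1.8, with the build mm10 and no roles. Annotation and strand use are not given in the sources used here. Rows were matched to the 43 symbols. The 13417 genes averaging 0.5 FPKM or more were tested on log2(FPKM + 1), which understates changes of low genes, with limma 3.58.1 in R 4.3.3 (diet as the only term, variance trend, two-sided, Benjamini-Hochberg over all 13417 genes at 0.05). The fit was tested on simulated data. With 3 against 3 an exact test of 1 gene cannot go below 0.1, and none was used. Reads describe depth only. They were recovered from FPKM steps (within 0.02 of a whole read) with a length fitted for each gene, which mostly exceeded the GENCODE M21 length, and are printed only for receptors with at least 60 in all. Calls near the line, ranks and ratios between genes depend on the lengths behind the FPKM values. Thrb, for example, was fitted at 14425 bases against 7403 in M21. Levels at M21 lengths were not worked out. Library sizes, overlaps and positions rest on M21 (GRCm38), and promoters, present for 39 of 43, come from RefSeq (GRCm38.p6). The members and lists were chosen with earlier results of these data known. List genes named are the 3 most abundant or 2 with the lowest p, taken from textbook lists, beside genes of stated function near 0; some list genes are not reported here. Alternatives were the pseudocount, the filter, 2 scalings, a replicate block and leaving out libraries.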

Additional observations from a re-analysis of the deposited data

How the results depend on the processing

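The count of expressed receptors stayed at 22 when any 1 library, or ND 2 and HCD 1 together, was left out, and was 21 if every library had to reach 0.5 FPKM. With ND 2 and HCD 1 both left out, the Nr5a2 difference was -0.36. No receptor was called in any of the 13 alternative settings, where the lowest adjusted p of a receptor was 0.557 (limma, without ND 2). No other gene was called either, except 1 lower gene without ND 2 (0 to 1 over the settings that leave out 1 library). Of 284 receptor differences under those settings, 264 kept their sign and 20 did not, and 11 of 22 receptors kept it in every setting run. The changed filters and the replicate block cannot move these estimates, so the signs kept there were fixed in advance and show no stability. With a pseudocount of 0.1 the Nr6a1 difference was 0.0033 in place of -0.0021. The other 19 sign changes came from leaving out 1 library. Those differences ran from -0.12 to 0.023 for Rara, -0.13 to 0.012 for Rora, -0.048 to 0.11 for Vdr, -0.034 to 0.11 for Nr2f2, -0.10 to 0.070 for Nr2f6, -0.071 to 0.0037 for Esrra, -0.14 to 0.0065 for Nr3c2, -0.0069 to 0.16 for Nr4a1, -0.014 to 0.17 for Nr4a2, -0.24 to 0.046 for Nr5a2 and -0.10 to 0.061 for Nr6a1; the cause was not tested.

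Both diets use replicate numbers 1 to 3, but the labels do not say that a number marks a shared batch. Deviations of same-numbered libraries correlated at -0.19, 0.14 and 0.06, and no library correlated best with the library of its own number. The numbers were therefore not taken to pair the samples. With a replicate block, 0 genes and 0 receptors were called and 753 genes had an unadjusted p under 0.05. Depth limits the 11 receptors above 0 and under 0.1 FPKM, where few reads lie behind most values.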
